A study of Mus musculus with 6 samples.

Results

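The genes described here were the sarcomeric actins *Acta1* and *Actc1*, the cytoplasmic actins *Actb* and *Actg1*, and the tropomyosins *Tpm1*, *Tpm2*, *Tpm3* and *Tpm4*. They were chosen by gene name, and each of the 8 names had 1 row among the 55416 genes of the deposited table. The cultures compared were satellite cells (SCs), the stem cells of skeletal muscle, from wild type (WT) mice and from lactoferrin knockout (*Ltf*-KO) mice, with 3 libraries per genotype. In both genotypes SCs of hind leg muscle were sorted on surface markers (positive for CD34 and α7-integrin, negative for Sca1 and CD11b), grown on Matrigel and harvested at day 4 with no other treatment. The knockout was a deletion of several *Ltf* exons made by CRISPR-Cas9 in C57/BL6N zygotes and so was carried by the whole animal. The sources used here describe the mice in general as young adults but do not give their sex or the number of animals behind each library, so p-values measure the spread between these libraries, which may be technical.

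Values were TPM, a level per unit of transcript length that is scaled to nearly the same total in every library (993650 to 994356 TPM here), and the depth of the libraries is unknown. *Ltf* itself was listed at 0.02 to 0.12 TPM in WT and at 0 to 0.03 TPM in *Ltf*-KO libraries, so its level did not check the genotype labels in these cells. The labelled cell type was checked on 7 markers of SCs and myoblasts, all of which were present. *Myod1*, the transcription factor of committed myoblasts, was at 748 to 816 TPM over the 6 libraries, the muscle intermediate filament gene *Des* at 446 to 511 TPM and the SC factor *Pax7* at 36.6 to 43.3 TPM. Markers of macrophages were low, with 4 of 6 under a mean of 1 TPM and a sum of 3.59 to 11.5 TPM, highest in WT replicate 1. The 5 endothelial markers were also low, with a sum of 6.27 to 13.4 TPM.

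Actin is the protein that polymerizes into thin filaments, and tropomyosin is a coiled-coil dimer that lies along the filament and controls which other proteins reach it. In the sarcomere, skeletal alpha-actin (*Acta1*) and cardiac alpha-actin (*Actc1*) form the thin filament with striated muscle tropomyosins and the troponin complex. The cytoplasmic actins beta (*Actb*) and gamma (*Actg1*) form the stress fibres and cell cortex of dividing cells, together with non-muscle tropomyosin isoforms that are mainly made from *Tpm3*, *Tpm4* and alternative transcripts of *Tpm1*. Developing and regenerating skeletal muscle makes *Actc1* before *Acta1* becomes the main actin of the adult fibre, and myoblasts leaving the cell cycle switch on both.

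The actin genes are alike in sequence, so reads no longer than the stretches they share could be assigned to more than a single actin gene. The last coding bases of the 4 actin members are shown for this reason, from the main annotated transcript of each in GENCODE M21, with the stop codon at the right end and with capitals at the 12 of 60 positions where the 4 genes are not all the same.
Acta1: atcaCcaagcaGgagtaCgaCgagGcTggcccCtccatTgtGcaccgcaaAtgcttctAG
Actc1: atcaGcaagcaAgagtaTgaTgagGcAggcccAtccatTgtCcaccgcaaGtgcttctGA
Actb: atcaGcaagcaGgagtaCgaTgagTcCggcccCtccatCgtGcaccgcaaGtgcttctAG
Actg1: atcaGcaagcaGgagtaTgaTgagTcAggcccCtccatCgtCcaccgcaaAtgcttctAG
Over the whole coding sequence, aligned without gaps from the stop codon, *Acta1* and *Actc1* were identical at 86.2% of 1134 bases and *Actb* and *Actg1* at 88.7% of 1128 bases. *Acta1* was nearly as close to *Actb*, with 85.02% identity and a longest identical run of 77 bases, against a longest run of 29 bases with *Actc1*. *Actc1* and *Actg1* were the most distant pair among the members, at 81.6%.

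Longer exact copies were held by related sequences elsewhere in the genome. For *Actg1*, 51.05% of all stretches of 100 bases along the main transcript occurred in the transcript of some other gene, most often in the processed pseudogene Gm12715 (44.4%), and for *Tpm3* 45.7% occurred in *Tpm3-rs7*, a related gene. The share was 7.64% for *Tpm4*, 1.1% for *Actb* and 0 for *Acta1*, *Actc1*, *Tpm1* and *Tpm2*. The read length is not given in the sources used here, and these shares depend on the length chosen. With 50 bases they were 62.4% for *Tpm3*, 56.7% for *Actg1*, 14.2% for *Actb*, 12.1% for *Tpm4* and 2.22% for *Acta1*, and with 150 bases they were 43.5% for *Actg1*, 32.2% for *Tpm3*, 5.31% for *Tpm4* and 0 for *Actb* and *Acta1*. *Actc1*, *Tpm1* and *Tpm2* were at 0 with each of these lengths. Stretches shared with another member or with the smooth muscle actin gene *Acta2* were few. They were at most 2.57% of a member's stretches (*Actb*) with 50 bases, and 0 for every member with 100 or 150 bases. In the deposited table Gm12715 was at 0 to 1.35 TPM and *Tpm3-rs7* at 0.15 to 0.48 TPM, against at least 3310.4 TPM for *Actg1* and 485.5 TPM for *Tpm3*. How reads from such stretches were placed is not given in the sources used here, so the levels of *Actg1* and *Tpm3*, and to a smaller extent *Actb* and *Tpm4*, are uncertain.

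The members were among the most abundant transcripts of these cells, and together they held 1.12% to 1.18% of all TPM. *Actb* ranked 29 and *Actg1* ranked 30 by mean TPM of all genes, and the lowest member, *Actc1*, ranked 396. In order of mean level per length over the 6 libraries, *Actb* was at 3642 ± 151 TPM (SD, n = 6), *Actg1* at 3449 ± 129, *Tpm1* at 1613 ± 37.9, *Acta1* at 977 ± 151, *Tpm4* at 538 ± 6.88, *Tpm3* at 504 ± 10.6, *Tpm2* at 458 ± 50.03 and *Actc1* at 351 ± 93.8 TPM. The ranges over libraries overlapped for *Actb* and *Actg1*, although *Actb* was the higher in 6 of 6 libraries, and for *Tpm2* and *Actc1*, where *Tpm2* was the higher in 6 of 6. They also overlapped for *Tpm3* and *Tpm2*, where *Tpm3* was the higher in 5 of 6. In *Ltf*-KO replicate 3 this order was turned, with *Tpm2* above both *Tpm3* and *Tpm4* and *Actc1* above *Tpm3*. *Tpm4* and *Tpm3* lay close together but their ranges did not meet (528 to 547 and 486 to 516 TPM).

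**Figure D1:**
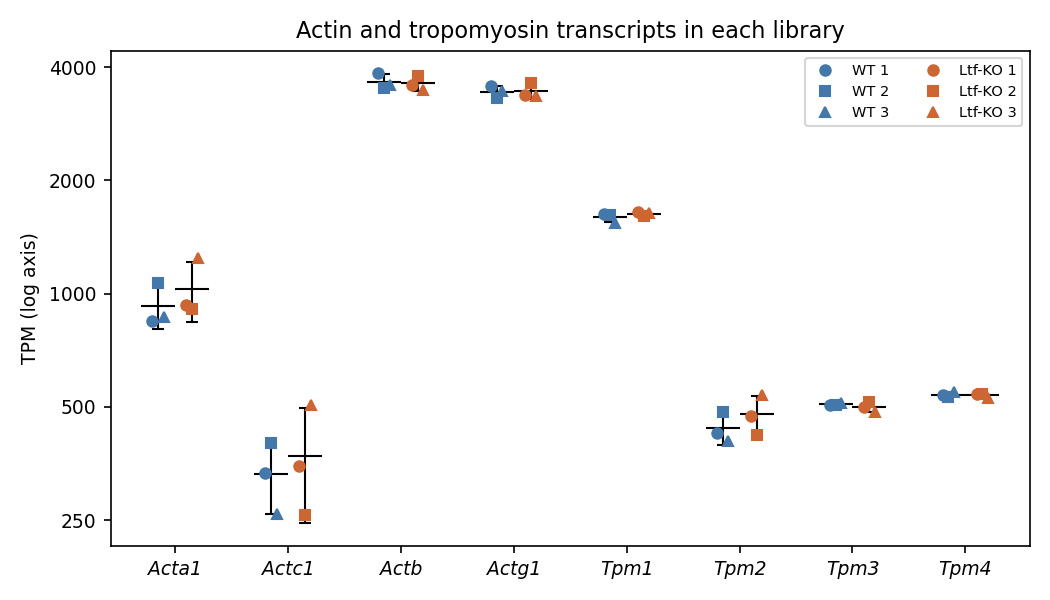
TPM of the 8 members (log axis) in each of the 6 libraries, with WT in blue and Ltf-KO in orange; black bars are the mean and SD of 3 libraries. The genotypes overlap for every member, and Acta1, Actc1 and Tpm2 spread more between libraries than the others.

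Most actin RNA in the cultures was cytoplasmic. Of the summed TPM of the 6 conventional actin genes (the 4 actin members with the smooth muscle actins *Acta2* and *Actg2*), *Actb* and *Actg1* together made up 80.5% ± 2.44 (SD, n = 3) in WT and 78.6% ± 3.87 (SD, n = 3) in *Ltf*-KO SCs. *Acta1* and *Actc1* together made up 14.3% ± 2.08 in WT and 15.5% ± 3.19 in *Ltf*-KO SCs (SD, n = 3 each). *Acta2* held 5.19% and 5.84%, and *Actg2* at most 0.038% in any library. The ratio of sarcomeric to cytoplasmic actin was 0.159, 0.214 and 0.16 in WT replicates 1 to 3 and 0.184, 0.157 and 0.256 in *Ltf*-KO replicates 1 to 3, so both the lowest and the highest library were *Ltf*-KO. Shares and ratios over chosen genes were given no test.

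**Figure D2:**
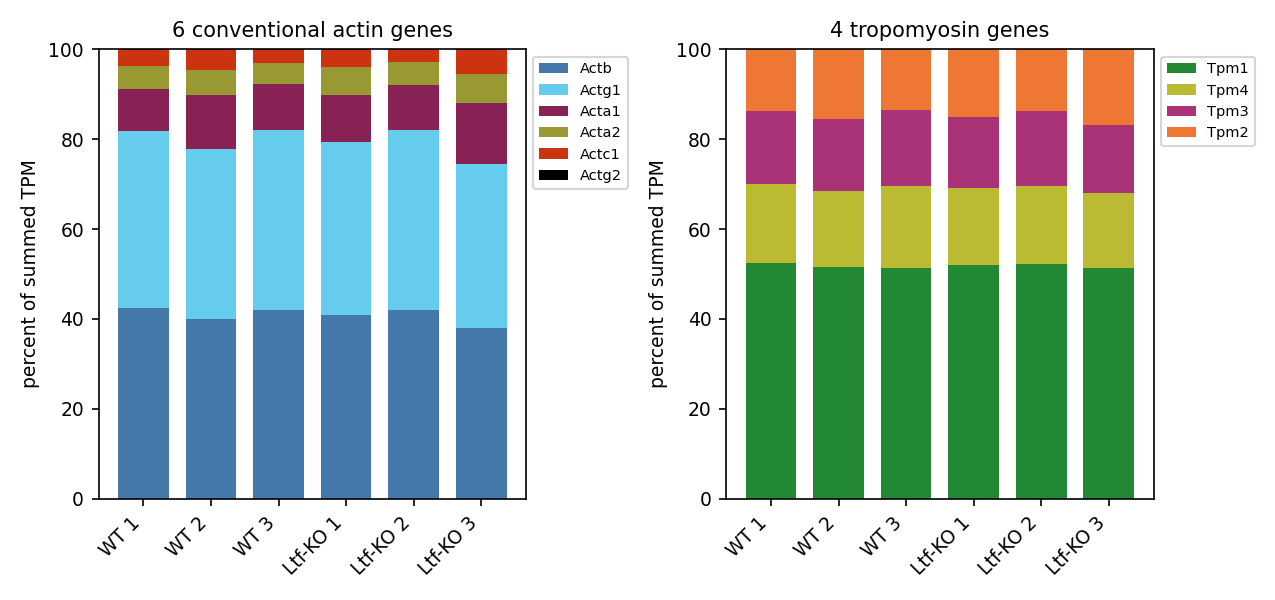
Share of each gene in the summed TPM (percent) of the 6 conventional actin genes (left) and of the 4 tropomyosin genes (right), per library. The cytoplasmic actins hold between 74.5% and 82.1% of actin TPM, Tpm1 holds between 51.3% and 52.6% of tropomyosin TPM, and Actg2 is too small to be seen.

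The comparison of *Ltf*-KO with WT asked whether loss of lactoferrin changed the RNA of the filament genes after 4 days of growth. None of the 8 members differed between genotypes by limma on log2(TPM + 1), with an adjusted p of 0.999 for each. None had an unadjusted p under 0.05 either, where 3.78% of the 12956 genes tested did, 2.01% higher and 1.78% lower in *Ltf*-KO, and where 0% (0 genes) had an adjusted p under 0.05. The WT and *Ltf*-KO libraries overlapped for all 8 members, while 8.46% of the genes tested did not overlap. The median log2 fold change of the 8 members was 0.019, beside 0.011 for all genes tested. The intervals of the difference were narrow for *Actb*, *Actg1*, *Tpm1*, *Tpm3* and *Tpm4* and wide for *Acta1*, *Actc1* and *Tpm2*.

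**Figure D3:**
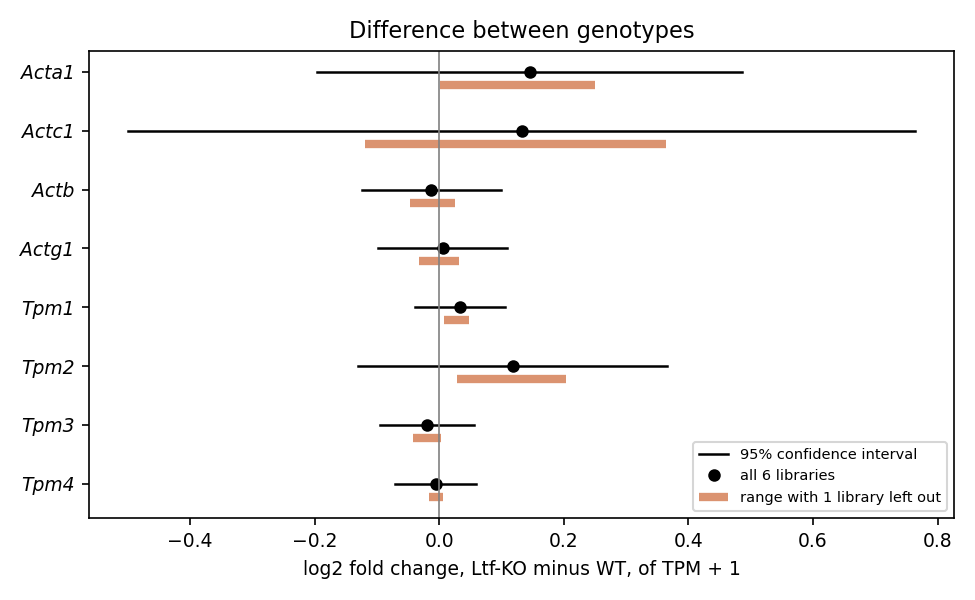
Log2 fold change of TPM + 1, Ltf-KO minus WT, for each member from limma with all 6 libraries (point), its 95% confidence interval (thin line) and the range when 1 library is left out (thick bar). Every interval includes 0, and those of Actc1 (-0.50 to 0.76), Acta1 (-0.20 to 0.49) and Tpm2 (-0.13 to 0.37) are the widest.

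*Acta1* (ENSMUSG00000031972), the actin of the adult skeletal muscle thin filament, was at 844, 1065 and 868 TPM in WT replicates 1 to 3 and at 933, 909 and 1243 TPM in *Ltf*-KO replicates 1 to 3. *Ltf*-KO replicate 3 was the highest library and WT replicate 2 the next, and the remaining 4 lay between 844 and 933 TPM. The mean was 926 ± 121 TPM in WT and 1029 ± 186 TPM in *Ltf*-KO SCs (SD, n = 3 each), a log2 fold change of 0.15 (standard error 0.14, 95% confidence interval -0.20 to 0.49, limma adjusted p = 0.999). The log2 fold change was 0.00095 when *Ltf*-KO replicate 3 was left out and 0.25 when WT replicate 2 was.

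*Actc1* (ENSMUSG00000068614), the alpha-actin of heart and of young skeletal muscle, was at 333, 400.5 and 259 TPM in WT and at 348, 258 and 506 TPM in *Ltf*-KO replicates 1 to 3. It varied most of all members, with the highest library at 1.96 times the lowest, and both extremes were *Ltf*-KO libraries. The mean was 331 ± 70.9 TPM in WT and 371 ± 126 TPM in *Ltf*-KO SCs (SD, n = 3 each), and the log2 fold change was 0.13 (standard error 0.26, 95% confidence interval -0.50 to 0.76, limma adjusted p = 0.999). Its direction depended on single libraries, being -0.12 when *Ltf*-KO replicate 3 was left out and -0.033 when WT replicate 3 was. Markers of heart muscle cells were at or near 0 beside it, with *Myh6* at 0 to 0.35 TPM, *Nppa* at 0.02 to 0.22 TPM, *Myl7* at 0 to 0.18 TPM and *Tnni3* at 0.33 to 1.17 TPM. The ratio of *Acta1* to *Actc1* was lowest in *Ltf*-KO replicate 3 (2.46), where both genes were highest, and highest in *Ltf*-KO replicate 2 (3.52) and WT replicate 3 (3.36), where *Actc1* was lowest.

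*Tpm2* (ENSMUSG00000028464), which encodes beta-tropomyosin of slow and developing muscle, shared the 3 highest libraries with *Acta1* and *Actc1* (*Ltf*-KO replicate 3, WT replicate 2, *Ltf*-KO replicate 1) but not the order of the other 3. It was at 426, 486 and 405 TPM in WT and at 473, 421 and 537.5 TPM in *Ltf*-KO replicates 1 to 3. The log2 fold change was 0.12 (standard error 0.10, 95% confidence interval -0.13 to 0.37, limma adjusted p = 0.999), and it was 0.029 without *Ltf*-KO replicate 3. Its share of tropomyosin TPM ran from 13.5% in WT replicate 3 to 16.9% in *Ltf*-KO replicate 3, beside 15.2% to 17.01% for *Tpm3* and 16.6% to 18.2% for *Tpm4*.

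**Figure D4:**
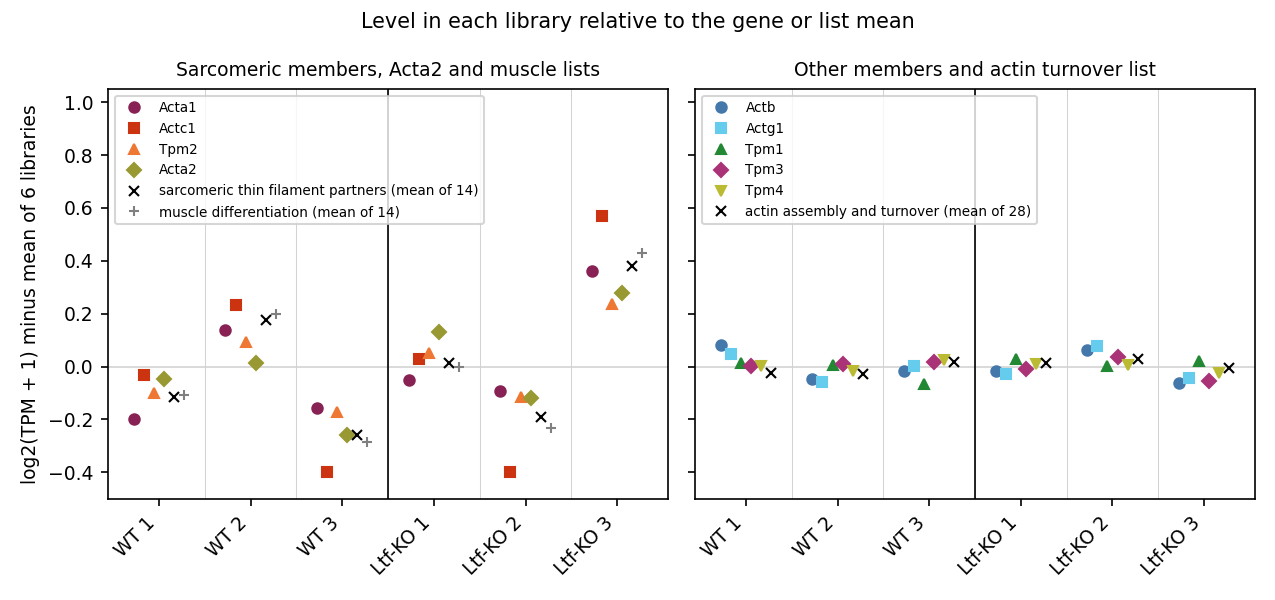
Log2(TPM + 1) of each gene, or mean over the genes of a list, minus its mean over the 6 libraries, for Acta1, Actc1 and Tpm2 with Acta2 and the muscle lists (left) and for the other members with the actin turnover list (right). The panel title calls Tpm2 sarcomeric, but its values are a sum over all its transcripts, and Tpm1 on the right has muscle transcripts too. On the left Ltf-KO replicate 3 is the highest for every item and WT replicate 3 or Ltf-KO replicate 2 the lowest for all but Acta1, while on the right all points lie within 0.1 of 0.

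The libraries high in *Acta1*, *Actc1* and *Tpm2* were also high in genes of muscle differentiation. The summed level of 14 such genes, among them myogenin (*Myog*), the fusion genes *Mymk* and *Mymx* and embryonic myosin (*Myh3*), was 1970 TPM, 2593 TPM and 1837 TPM in WT and 2202 TPM, 1833 TPM and 3060 TPM in *Ltf*-KO replicates 1 to 3. The largest part of this sum was the myosin light chain gene *Mylpf*, at 822 to 1396 TPM. *Myog* alone ranged from 266 TPM in *Ltf*-KO replicate 2 to 508 TPM in *Ltf*-KO replicate 3. For 13 of the 14 genes *Ltf*-KO replicate 3 was the highest library, against 17.01% of all genes tested, a count chosen after the values were seen. *Cdkn1c* was instead highest in WT replicate 1 (7.9 TPM). In these bulk libraries more differentiating cells and more RNA of these genes per cell cannot be told apart, and the part of differentiation in the spread of the actins was not tested. The summed level of the 7 SC and myoblast markers, of which *Myod1* was the largest part, ran from 1878 TPM in WT replicate 3 to 1963 TPM in *Ltf*-KO replicate 3. The markers did not move together. For 4 of the 7, *Ltf*-KO replicate 3 was the highest library and WT replicate 2 the next, against 5.13% of all genes tested, a count chosen after the values were seen. *Pax7* (36.6 TPM) and *Myf5* (109 TPM), 2 of the 7, were instead lowest in *Ltf*-KO replicate 3, against 20.3% of all genes tested.

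The genes nearest to the sarcomeric actins over the 6 libraries were muscle genes. Likeness was the root mean square difference of log2(TPM + 1) after centring each gene on its own mean, over 8071 other genes whose mean reached 10 TPM. For *Acta1* the nearest were *Tnnc1* (slow and cardiac troponin C, 0.032), *Cacng1* (a subunit of the muscle calcium channel, 0.049), *Tmem182* (0.052), *Trim72* (a membrane repair protein of muscle, 0.056) and *Mybph* (myosin-binding protein H, 0.062), where the median gene differed by 0.208. For *Actc1* they were *Atp2a1* (the fast muscle calcium pump, 0.044), *Myog* (0.073), *Tnnc2* (fast troponin C, 0.085), *Pdlim3* (a Z-disc protein, 0.09) and *Pgam2* (the muscle phosphoglycerate mutase, 0.093), where the median gene differed by 0.352. The 2 lists held no gene in common.

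Other genes of the sarcomeric thin filament were also highest in *Ltf*-KO replicate 3. Of 15 thin filament partners (among them troponins, nebulin and filament-capping genes) 14 passed the level filter. *Ltf*-KO replicate 3 was the highest library for 14 of these 14, where it was the highest for 17.01% of all genes tested. *Ltf*-KO replicate 3 was followed by WT replicate 2 for 12 of the 14, against 5.13% of all genes. Both counts were chosen after the values were seen. *Tnnc1* was at 392, 509.8 and 406 TPM in WT and at 441, 415 and 609 TPM in *Ltf*-KO replicates 1 to 3. The cardiac and embryonic troponin T gene *Tnnt2* had a log2 fold change of 0.038 and the slow troponin T gene *Tnnt1* one of 0.058. None of the 14 passed the test at an adjusted or an unadjusted p under 0.05, and their median log2 fold change of 0.14 became -0.019 without *Ltf*-KO replicate 3.

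The promoters of the actin members are shown because the serum response factor (SRF), which is switched on when free actin monomer falls, is known to drive actin genes through the CArG box. RefSeq promoters (windows of 300 bases around the annotated start site, GRCm38.p6) were matched by symbol for 7 of the 8 members, with no entry for *Actb*. CArG boxes are in capitals, and the gene strand is printed, which is the minus strand for all 3 genes. Only exact matches to CCWWWWWWGG, where W is A or T, were counted as CArG boxes, and near matches were not.
Acta1, chr8:123894726-123895025: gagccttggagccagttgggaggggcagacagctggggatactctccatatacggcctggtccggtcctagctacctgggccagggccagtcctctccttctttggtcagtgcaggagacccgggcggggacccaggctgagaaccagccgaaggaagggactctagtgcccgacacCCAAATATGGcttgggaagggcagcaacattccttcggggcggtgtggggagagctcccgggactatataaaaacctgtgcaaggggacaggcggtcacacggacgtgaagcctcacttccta
Actc1, chr2:114052826-114053125: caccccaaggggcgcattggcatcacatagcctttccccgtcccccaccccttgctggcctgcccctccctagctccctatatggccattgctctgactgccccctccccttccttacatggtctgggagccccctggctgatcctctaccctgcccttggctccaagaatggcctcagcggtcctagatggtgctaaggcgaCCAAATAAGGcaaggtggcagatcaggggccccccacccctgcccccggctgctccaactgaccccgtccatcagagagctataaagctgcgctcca
Actg1, chr11:120348446-120348745: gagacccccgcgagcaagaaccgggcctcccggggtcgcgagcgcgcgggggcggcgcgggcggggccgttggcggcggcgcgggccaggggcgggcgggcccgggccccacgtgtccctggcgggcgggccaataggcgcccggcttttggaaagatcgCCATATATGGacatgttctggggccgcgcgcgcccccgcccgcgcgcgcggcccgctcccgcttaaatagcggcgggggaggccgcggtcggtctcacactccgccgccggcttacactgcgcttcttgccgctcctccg
Each of the 3 windows held 1 CArG box, on a motif that 1.63% of all 32851 promoters held on either strand, and the windows of *Tpm1*, *Tpm2*, *Tpm3* and *Tpm4* held none. The box began 73 bases before the annotated start site in *Acta1*, 47 in *Actc1* and 90 in *Actg1*. The E-box CANNTG, read by the myogenic factors, was in the windows of all 7 matched members and in 72.3% of all promoters. The MCAT motif CATTCC was in the windows of *Acta1* and *Tpm1* and in 14.7% of all promoters, and TATAAA was in those of *Acta1* and *Actc1* and in 13.6%. TATAAA lay 7 bases before the annotated start in *Acta1* and 33 bases after it in *Actc1*, so the distances given here hold for the annotated starts, which were not checked against the start of transcription. A match is a description of the letters and not a bound site.

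The cytoplasmic actins, *Actb* and *Actg1*, did not pass the test and varied by less than 5% (coefficient of variation) within a genotype. *Actb* (ENSMUSG00000029580) was at 3855, 3525 and 3596 TPM in WT and at 3593, 3801 and 3484 TPM in *Ltf*-KO replicates 1 to 3. *Actg1* (ENSMUSG00000062825) was at 3567, 3310.4 and 3448 TPM in WT and at 3381, 3637 and 3349 TPM in *Ltf*-KO replicates 1 to 3. For both genes WT replicate 1 and *Ltf*-KO replicate 2 were the highest libraries, and WT replicate 2 and *Ltf*-KO replicate 3, the libraries with the most sarcomeric actin, were the lowest. The log2 fold change was -0.013 for *Actb* (standard error 0.047, 95% confidence interval -0.12 to 0.099) and 0.0054 for *Actg1* (standard error 0.043, 95% confidence interval -0.098 to 0.11), each with a limma adjusted p of 0.999. Neither direction was stable, since *Actb* was 0.025 without WT replicate 1 and *Actg1* was -0.032 without *Ltf*-KO replicate 2. The ratio of *Actb* to *Actg1* stayed between 1.04 and 1.08 in all 6 libraries.

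*Tpm1* (ENSMUSG00000032366), the alpha-tropomyosin gene with muscle and non-muscle transcripts, was the main tropomyosin, with 51.8% ± 0.676 of tropomyosin TPM in WT and 51.9% ± 0.446 in *Ltf*-KO SCs (SD, n = 3 each). It was at 1627, 1619 and 1539 TPM in WT and at 1643, 1613 and 1638 TPM in *Ltf*-KO replicates 1 to 3, a log2 fold change of 0.033 (standard error 0.030, 95% confidence interval -0.039 to 0.10, limma adjusted p = 0.999). WT replicate 3 was the lowest library, and the other 5 lay within 1613 to 1643 TPM. GENCODE M21 lists 9 protein-coding *Tpm1* transcripts with a consensus coding sequence, of 738 to 855 coding bases, against 2 for *Tpm2*, 3 for *Tpm3* and 1 for *Tpm4*. The deposited values are sums per gene, so a switch between muscle and non-muscle isoforms of 1 gene would not be seen in them.

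*Tpm3* (ENSMUSG00000027940), which encodes slow-muscle and cytoplasmic tropomyosins, was at 505, 507 and 510.5 TPM in WT and at 500.1, 516 and 485.5 TPM in *Ltf*-KO replicates 1 to 3. *Tpm4* (ENSMUSG00000031799), a gene for short cytoplasmic tropomyosin, was at 538, 531 and 547 TPM in WT and at 542, 539.8 and 528 TPM in *Ltf*-KO replicates 1 to 3. *Ltf*-KO replicate 3, the highest library of the sarcomeric actins, was the lowest of both genes. With *Actb*, 3 of the 8 members were lowest in this library, against 20.3% of all genes tested, a count chosen after the values were seen. The log2 fold change was -0.020 for *Tpm3* (standard error 0.032, 95% confidence interval -0.095 to 0.056) and -0.0057 for *Tpm4* (standard error 0.027, 95% confidence interval -0.071 to 0.060), with a limma adjusted p of 0.999 for each.

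The members differed in how far they varied within a genotype. The standard deviation of log2(TPM + 1) within a genotype was 0.409 for *Actc1*, 0.219 for *Acta1* and 0.157 for *Tpm2*, and at most 0.0658 for the other 5 members. Among the 1391 genes whose mean reached 100 TPM (median 0.0546), *Actc1* ranked 16, *Acta1* ranked 56 and *Tpm2* ranked 98 from the most variable. *Tpm4*, at 0.0203, ranked 1324.

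**Figure D5:**
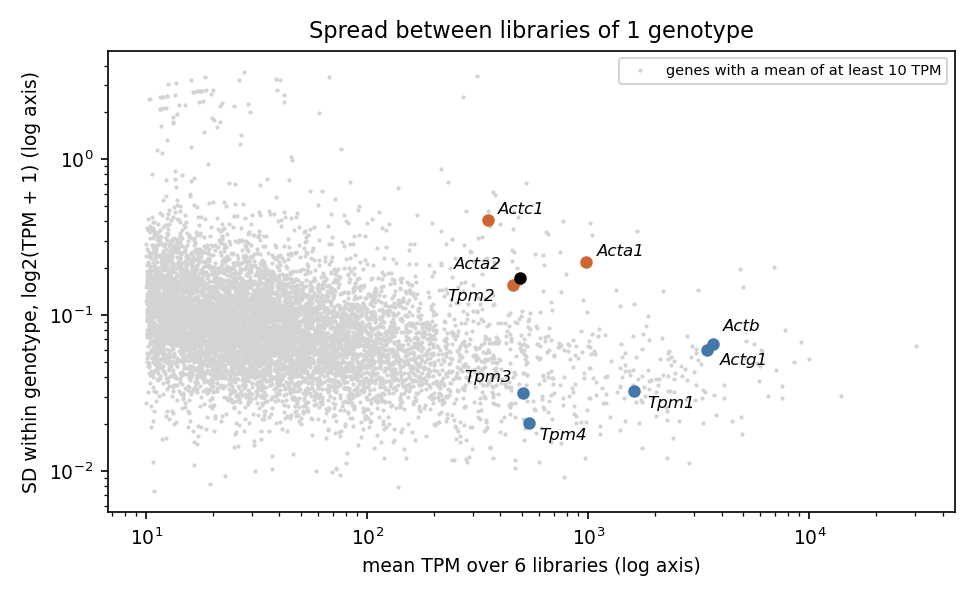
Standard deviation within genotype of log2(TPM + 1) (log axis) against mean TPM over 6 libraries (log axis) for all genes whose mean reached 10 TPM (grey); orange points are Acta1, Actc1 and Tpm2, blue points the other members and the black point Acta2. Actc1 (0.409) lies near the upper edge of genes of its level and Tpm4 (0.0203) near the lower edge.

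Of 5 further genes of the family, 2 passed the level filter. *Acta2*, smooth muscle alpha-actin, which myoblasts and myofibroblasts also make, was at 473, 493 and 409 TPM in WT and at 535, 450.1 and 593 TPM in *Ltf*-KO replicates 1 to 3, with a log2 fold change of 0.19 (standard error 0.11, 95% confidence interval -0.079 to 0.47, limma adjusted p = 0.999). *Actg2*, of enteric smooth muscle, was at 1.02 to 1.82 TPM in WT and 1.6 to 3.41 TPM in *Ltf*-KO libraries. *Actbl2* was listed at 0 in every library. Of the 11 smooth muscle and pericyte markers, which include *Acta2* and *Actg2*, 7 were tested, none passed at an adjusted p under 0.05, and their median log2 fold change was 0.19. The summed level of the 11 was 553 to 640.3 TPM in WT and 632 to 750.3 TPM in *Ltf*-KO libraries, and most of it was *Acta2*. At an unadjusted p under 0.05, *Tagln* (transgelin, 60.04 TPM in WT and 72.4 TPM in *Ltf*-KO) and *Pdgfrb* (a growth factor receptor of pericytes and fibroblasts, 4.11 and 6.42 TPM) were higher in *Ltf*-KO, each with a limma adjusted p of 0.999, where 2.01% of all genes tested were. These 2 calls became 0 without WT replicate 1 or without WT replicate 2, and 4 markers were called without *Ltf*-KO replicate 3. The list was mixed in level. A mean under 1 TPM was found for 4 of the 11, among them the defining smooth muscle gene *Myh11* (0.17 to 0.62 TPM) and the pericyte gene *Rgs5* (0.12 to 0.46 TPM). Others were higher, with *Cspg4* at 30.8 to 41.1 TPM, *Smtn* at 34.5 to 43.7 TPM and *Notch3* at 5.95 to 9.07 TPM. The 7 fibroblast markers summed to 116 to 122 TPM in WT and 117 to 153 TPM in *Ltf*-KO, and most of it was *Col3a1* (88 to 118 TPM). Of these, 6 were tested and 0 passed at an adjusted or unadjusted p under 0.05, with a median log2 fold change of 0.25. The nearest was *Col1a2* (log2 fold change 0.31, 95% confidence interval -0.00041 to 0.61, limma unadjusted p = 0.0502). The count at an unadjusted p was 1 with pseudocounts of 0.1 and 0.01 and with a filter of 10 TPM. The part of such cells in the level of *Acta2* was not tested.

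Genes that build, cut, bundle and fold actin gave no call between genotypes at the main settings. Of 28 genes of actin assembly and turnover, 0 passed at an adjusted or unadjusted p under 0.05, and their median log2 fold change was 0.011. The most abundant were the monomer-binding thymosin gene *Tmsb10* (6012 TPM in WT and 6037 TPM in *Ltf*-KO), profilin *Pfn1* (2311 and 2312 TPM) and thymosin *Tmsb4x* (1872 and 1865 TPM). Of 17 genes of filament crosslinkers and non-muscle myosin, such as the light chain *Myl6* (1788 and 1773 TPM), *Myl12a* (831 and 860.2 TPM) and filamin *Flna* (743 and 764 TPM), 0 passed either threshold, with a median of 0.037. Of 17 genes of actin folding and processing, 0 passed either threshold, with a median of -0.018. The chaperonin subunits *Cct2*, *Cct3* and *Cct5*, which fold new actin, had log2 fold changes of -0.021, -0.075 and -0.0099.

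SRF and its co-activators gave no call either. Of the 15 genes found of this list 14 were tested, 0 passed at an adjusted p under 0.05 and 1, *Tagln*, at an unadjusted p under 0.05 (3.78% of all genes tested), with a median log2 fold change of 0.065. The count was 0 when any 1 WT library was left out, 3 without *Ltf*-KO replicate 2 and 2 without *Ltf*-KO replicate 3. *Srf* was at 46.04 to 54.6 TPM in WT and 47.8 to 57.05 TPM in *Ltf*-KO libraries. The 11 splicing factors known to act on tropomyosin and other muscle transcripts, among them *Ptbp1*, which represses muscle exons (228 TPM in WT and 227 TPM in *Ltf*-KO), *Qk* and *Mbnl2*, had 0 members past either threshold and a median of 0.043. The 14 differentiation genes had 0 past either threshold, with a median of 0.15 that became -0.026 without *Ltf*-KO replicate 3, and the 7 SC and myoblast markers had 0 with a median of 0.0037. Of the endothelial markers 4 and of the macrophage markers 2 were tested, with 0 past either threshold and medians of -0.0015 and -0.51. The macrophage marker *Lyz2*, 1 of these 2, was at 7.22 TPM in WT replicate 1 and at 0.38 to 2.31 TPM in the other libraries.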

How the data were processed

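RNA of 6 libraries of SCs grown for 4 days (3 WT, 3 *Ltf*-KO) was sequenced. The authors deposited TPM values with 2 decimals, and describe their making only as following a manufacturer's protocol. The submitters' processing notes name GRCm39, and the aligner, counter and annotation are not given in the sources used here. TPM keeps no depth, so precision was judged from the spread between libraries.

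Each column was matched to its sample by the labels. The 12956 genes whose mean reached 1 TPM were tested on log2(TPM + 1) (pseudocount 1) with limma 3.58.1 in R 4.3.3 (lmFit, eBayes with a variance trend, two-sided, Benjamini-Hochberg over all genes tested, threshold 0.05). Fold changes of low genes are understated on this scale. The script was tested on simulated data. Alternatives were pseudocounts of 0.1 and 0.01, no filter, a filter of 10 TPM, median-of-ratios scaling, quantile normalization, no variance trend, the replicate block and leaving out each library. The members and lists were chosen with earlier results of these data known. Named genes were the members, *Ltf*, the 5 genes nearest to *Acta1* and to *Actc1*, and in each list the genes at an unadjusted p under 0.05 or otherwise up to 3 of the most abundant, and markers. Other names are given to explain a list. Transcripts are from GENCODE M21 (GRCm38) and promoters from RefSeq (GRCm38.p6), a build other than that of the files, so they were matched by name. Protein sequences were not used here.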

Additional observations from a re-analysis of the deposited data

How the results depend on the processing

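No member passed at an adjusted or unadjusted p under 0.05 in any of the 14 alternatives, and the lowest adjusted p of a member was 0.946 (no filter). *Acta1*, *Tpm1* and *Tpm2* kept a positive log2 fold change throughout. *Actg1* was -0.0068 with median-of-ratios scaling and -0.020 with quantile normalization, and *Tpm4* was 0.0063 with quantile normalization. With 1 library left out the log2 fold change ranged from -0.12 to 0.36 for *Actc1*, from -0.047 to 0.025 for *Actb*, from -0.032 to 0.031 for *Actg1*, from -0.042 to 0.0022 for *Tpm3* and from -0.016 to 0.0057 for *Tpm4*. These reversals lie within the intervals of the full fit, and the cause was not tested.

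By limma 0 genes had an adjusted p under 0.05 (490 an unadjusted p), beside 2 with a pseudocount of 0.01 and 0 to 6 with 1 library left out. The count at an unadjusted p was 890 with no filter and 281 with a filter of 10 TPM, on 26553 and 8072 genes. The share of these genes lower in *Ltf*-KO was 46.9%, and it was 57.6% with median-of-ratios scaling and 60.04% with quantile normalization. The median of the further actin genes, which rests on 2 genes, was 0.43 and 0.45 with pseudocounts of 0.1 and 0.01, 0.051 with no filter and 0.19 with a filter of 10 TPM. With 1 library left out, the median ranged from 0.11 to 0.25 for smooth muscle and pericyte markers, from -0.0074 to 0.048 for filament crosslinkers, from -0.023 to 0.039 for SC and myoblast markers, from -0.026 to 0.30 for differentiation genes, from -0.019 to 0.25 for thin filament partners, from -0.11 to 0.16 for endothelial markers, from -0.0061 to 0.030 for actin assembly, from 0.0025 to 0.085 for splicing factors, from -0.020 to -0.0035 for actin folding, from 0.048 to 0.12 for SRF targets, from 0.19 to 0.37 for fibroblast markers and from -0.81 to -0.20 for macrophage markers. Median-of-ratios scaling turned the medians of actin assembly (-0.0016) and SC and myoblast markers (-0.0085), and no filter gave -0.074 for macrophage and 0.052 for endothelial markers. Markers of smooth muscle and pericytes at an unadjusted p under 0.05 numbered 0 to 4, and SRF targets 0 to 3, with 1 library left out. Fibroblast markers and actin folding genes then numbered 0 to 2. The members and the SC and myoblast markers stayed at 0, and every other tested list was at 0 to 1. With all 6 libraries, filament crosslinkers had 1 with quantile normalization. Smooth muscle and pericyte markers had 3 with no filter and 1 with a filter of 10 TPM. The deviations of same-numbered libraries correlated at -0.041, -0.058 and -0.088 across genes, so no pairing by number was seen. Whether same-numbered cultures were prepared together is not given in the sources used here. With the replicate block 0 genes had an adjusted and 380 an unadjusted p under 0.05.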
